A study of Mus musculus with 8 samples.

Results

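The genes of the type 2 cytokine locus were described here in cultured mouse lung ILC2s (group 2 innate lymphoid cells): Il5, Il13, Il4 and Rad50. They were the rows of the deposited expression table that carry these symbols, 4 of 22075 genes. Each symbol stood for a single Ensembl gene, and all 4 members had at least 1 FPKM (read fragments per kilobase of transcript and unit of sequencing depth) in all 8 libraries, so that none entered the tests through a single group. The libraries fell into 4 groups of 2, namely STAT3-KO with IL-33, WT with IL-33, STAT3-KO control and WT control.

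Lung ILC2s of C57BL/6 mice that had been briefly exposed to papain, a protease allergen, were kept for about 5 days in culture with 10 ng/ml IL-2. IL-33 at 10 ng/ml was then added for 2 days in the IL-33 groups, while how the controls were kept over that time is not given in the labels. The STAT3-KO cells came from VavicreStat3fl/fl mice, in which Cre recombinase is driven by Vav regulatory sequences and acts in blood cells at large. The WT cells came from Stat3fl/fl mice, so that the floxed Stat3 alleles were shared by all 4 groups, whereas the effect of the Stat3 deletion and that of the Cre transgene cannot be told apart. The ages of the mice, and whether a replicate stands for its own mouse or culture, are not given in the sources used here, so the p-values measure only the spread between these libraries, which may be technical.

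ILC2s are tissue lymphocytes without a rearranged antigen receptor that answer IL-33, an alarm signal of damaged epithelium, by secreting IL-5 and IL-13. IL-5 supports the growth of eosinophils, IL-13 drives mucus production and smooth muscle contraction in the airway, and IL-4, which shares a receptor chain and the transcription factor STAT6 with IL-13, drives IgE switching in B cells. Their genes lie side by side in mouse and human, and in mouse T helper cells they are controlled together by a locus control region that lies within Rad50, a gene for a subunit of the DNA break repair complex MRE11-RAD50-NBN.

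The locus lies on mouse chromosome 11 (build GRCm38, GENCODE M21 annotation), where the span from the first base of Il4 to the last base of Il5 covers 122125 bp. In the order of the chromosome, Il4 (ENSMUSG00000000869) lies at chr11:53602982-53618669 on the minus strand, with 1227 bp of merged exons. Il13 (ENSMUSG00000020383) follows after 12654 bp at chr11:53631324-53634702, also on the minus strand, with 1205 bp of merged exons. Rad50 (ENSMUSG00000020380) begins 14816 bp further on, at chr11:53649519-53707319 on the minus strand, and has 25 merged exons of 5375 bp in total. Il5 (ENSMUSG00000036117) lies 13474 bp beyond it at chr11:53720794-53725106 on the plus strand, with 1537 bp of merged exons, and is overlapped by the antisense gene Gm12214. Whether the authors' counting used strand is not given in the sources used here, so reads of Il5 and of that antisense gene cannot be told apart.

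The promoters of the cytokine genes are shown because the 3 genes differed in their response to IL-33 as described further on. RefSeq's windows for GRCm38.p6 held 3 of the 4 members, and the 250 bases before the start are given on each gene's own strand, at chr11:53720544-53720793 (plus) for Il5, chr11:53634703-53634952 (minus) for Il13 and chr11:53618666-53618915 (minus) for Il4. Il4 had 2 starts among these windows, and only the one at the outer end of its RefSeq gene is shown and described here. Capitals mark matches, on either strand, to GATA motifs (GATAA or GATAG after an A or a T), to the NFAT core GGAAA and to the STAT6 motif, a palindrome with 4 free bases at its centre.
Il5: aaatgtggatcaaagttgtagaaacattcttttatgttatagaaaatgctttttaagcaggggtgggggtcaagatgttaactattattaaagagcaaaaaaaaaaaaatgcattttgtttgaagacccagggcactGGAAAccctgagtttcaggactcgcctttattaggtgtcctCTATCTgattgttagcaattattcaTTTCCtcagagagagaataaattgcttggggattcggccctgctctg
Il13: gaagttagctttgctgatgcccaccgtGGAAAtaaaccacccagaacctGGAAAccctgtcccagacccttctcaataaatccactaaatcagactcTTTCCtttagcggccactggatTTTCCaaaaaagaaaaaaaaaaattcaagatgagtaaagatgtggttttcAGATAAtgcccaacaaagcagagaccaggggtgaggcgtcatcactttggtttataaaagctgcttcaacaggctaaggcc
Il4: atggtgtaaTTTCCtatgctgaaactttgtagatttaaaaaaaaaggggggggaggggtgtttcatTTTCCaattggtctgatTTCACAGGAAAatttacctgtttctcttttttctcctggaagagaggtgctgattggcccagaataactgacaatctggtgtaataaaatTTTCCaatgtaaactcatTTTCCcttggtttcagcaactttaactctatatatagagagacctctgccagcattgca
A GATA motif stood once in the Il5 window, beginning 72 bases before the start and read as CTATCT, and once in the Il13 window, 81 bases before the start. None of these letters was in the Il4 window, and 26.5% of the 32851 promoter windows of this length held a match. The NFAT core occurred 2 times in the Il5 window, 4 times in that of Il13 and 5 times in that of Il4, a motif found in 55.6% of all windows. The STAT6 motif stood once in the Il4 window, 167 bases before the start, where it overlaps an NFAT core, and was in 5.85% of all windows. The STAT spacing TTCNNNGAA (7.02% of windows), the AP-1 motif TGACTCA or TGAGTCA (4.46%) and the NF-kB consensus (7.25%) were not in these 3 windows. These matches describe letters, not bound factors.

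Stat3, the targeted gene, had 8.03 and 9.69 FPKM in STAT3-KO with IL-33, 48.98 and 55.3 FPKM in WT with IL-33, 15.3 and 16.0 FPKM in STAT3-KO control, and 41.7 and 50.7 FPKM in WT control. It was lower in STAT3-KO in both media, although which exons were deleted is not given. The libraries were 15843686 to 19905816 reads deep, as the steps between low FPKM values show, and replicates correlated at 0.971 to 0.983 (Pearson, across genes). All 14 ILC2 markers were detected in every library. Of the T cell markers, Cd3e, a chain of the T cell receptor complex, stayed at or below 0.259 FPKM. Others were higher, with Cd3g at 3.97 to 9.15, Cd247 at 1.03 to 2.37, Trac at 0.722 to 3.82 and Trbc2 at 85.1 to 550 FPKM. Among the 11877 genes tested, the median difference of IL-33 from control was -0.18 in STAT3-KO and -0.14 in WT on the log2(FPKM + 1) scale, and each member's response stands against that shift. After median-of-ratios rescaling these medians were -0.02 and -0.01. These are levels relative to all RNA of a library, in which fewer cells of a type and less RNA per cell cannot be told apart.

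The response to IL-33 differed sharply between the 4 neighbours. Il5 and Il13 rose with IL-33 in both genotypes and became some of the most abundant mRNAs of the WT cells. Il4 stayed at a few FPKM and rose in WT, whereas its difference in STAT3-KO did not pass the test. Rad50 was expressed at an even level throughout and was somewhat lower with IL-33 in STAT3-KO. By limma on log2(FPKM + 1), with Benjamini-Hochberg adjustment over all 11877 tested genes and a threshold of 0.05, IL-33 raised 2 members and lowered 1, Rad50, in STAT3-KO, where 51.0% of all tested genes passed (20.4% higher, 30.6% lower). In WT it raised 3 members, where 36.1% of all tested genes passed (14.5% higher, 21.6% lower). After rescaling, the genes higher and lower in all were 3062 and 2832 in STAT3-KO, against 2425 and 3638 before it, and 2246 and 1881 in WT, against 1724 and 2561 before it.

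**Figure D1:**
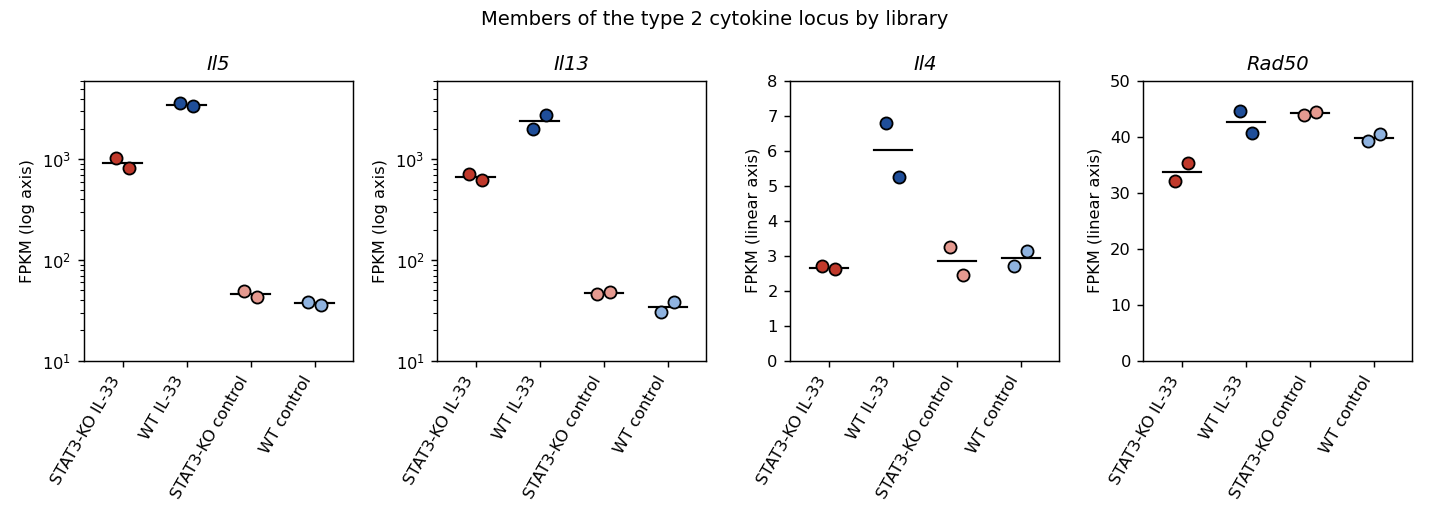
FPKM of Il5, Il13, Il4 and Rad50 in each of the 8 libraries, with 1 point per library and a line at the group mean; the axes of Il5 and Il13 are logarithmic and those of Il4 and Rad50 linear. Il5 and Il13 lie far above control in both IL-33 groups and lower in STAT3-KO with IL-33 than in WT with IL-33, Il4 is higher in WT with IL-33 alone, and Rad50 lies between 32.2 and 44.6 FPKM.

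Il5 stood at 1023 and 818 FPKM in STAT3-KO with IL-33, at 3602 and 3398 FPKM in WT with IL-33, at 49.2 and 42.4 FPKM in STAT3-KO control, and at 38.5 and 36.0 FPKM in WT control. The 4 groups did not overlap in Il5, and the IL-33 libraries of both genotypes stood far above every control library. Of all tested genes, 30.7% lay wholly higher and 46.3% wholly lower with IL-33 in STAT3-KO, and 28.1% and 42.3% in WT. In STAT3-KO the mean was 921 ± 145 FPKM with IL-33 and 45.8 ± 4.8 FPKM in control (SD, n = 2 each), a 20.1-fold ratio of means. The difference was 4.29 ± 0.13 (SE) on the log2(FPKM + 1) scale, with an adjusted p of 2.29e-07 by limma. In WT the mean was 3500 ± 144 FPKM with IL-33 and 37.2 ± 1.8 FPKM in control (SD, n = 2 each), a ratio of 94.0. That difference was 6.52 ± 0.13 on the same scale, with an adjusted p of 4.1e-08 by limma. From the highest, the Il5 difference ranked 30 among all 11877 tested genes in STAT3-KO and 6 in WT.

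Il13, the epithelial effector cytokine of the locus, followed the same order of groups. Its level was 720 and 625 FPKM in STAT3-KO with IL-33, 2021 and 2783 FPKM in WT with IL-33, 45.99 and 47.8 FPKM in STAT3-KO control, and 30.6 and 37.9 FPKM in WT control. No group overlapped another in Il13, and the widest spread was that between the WT libraries with IL-33. In STAT3-KO the mean was 672 ± 67 FPKM with IL-33 and 46.9 ± 1.3 FPKM in control (SD, n = 2 each), a 14.3-fold ratio and a log2(FPKM + 1) difference of 3.81 ± 0.16 (SE; adjusted p = 1.56e-06 by limma). In WT it was 2402 ± 539 FPKM with IL-33 and 34.2 ± 5.2 FPKM in control (SD, n = 2 each), a 70.2-fold ratio and a log2(FPKM + 1) difference of 6.08 ± 0.16 (SE; adjusted p = 2.72e-07 by limma). These differences ranked 45 in STAT3-KO and 7 in WT among all tested genes.

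The place of both cytokines in the transcriptome shows what these ratios amount to. Ordered by FPKM from the top, Il5 held ranks 27 and 34 in STAT3-KO with IL-33, 5 and 5 in WT with IL-33, 1154 and 1341 in STAT3-KO control, and 1529 and 1636 in WT control. Il13 held ranks 51 and 55 in STAT3-KO with IL-33 and 18 and 9 in WT with IL-33. Together, Il5 and Il13 made up 0.470% and 0.414% of the summed FPKM in STAT3-KO with IL-33, 1.67% and 1.85% in WT with IL-33, 0.0291% and 0.0279% in STAT3-KO control, and 0.0208% and 0.0230% in WT control. The counts behind these levels were large, with 25642 and 22351 reads of Il5 in STAT3-KO with IL-33, 110198 and 85016 in WT with IL-33, 1273 and 1046 in STAT3-KO control, and 993 and 876 in WT control.

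With IL-33 present, all 4 members were lower in STAT3-KO than in WT (3 after rescaling, without Rad50), in a comparison where 32.6% of all tested genes passed (16.4% lower, 16.3% higher). The cytokine mRNAs differed more than Rad50. Mean Il5 in STAT3-KO was 26.3% of the WT mean, with a log2(FPKM + 1) difference of -1.93 ± 0.13 (SE; adjusted p = 3.24e-05 by limma). Mean Il13 was 28.0% of the WT mean, with a difference of -1.82 ± 0.16 (SE; adjusted p = 0.000138 by limma). Il4 was at 44.1% of the WT mean (-0.93 ± 0.20, adjusted p = 0.00809 by limma) and Rad50 at 79.2% (-0.33 ± 0.11, adjusted p = 0.0464 by limma). Both STAT3-KO libraries lay below both WT libraries for all 4 members, as for 32.6% of all tested genes (34.3% above). The difference of Il5 was the 151st lowest of the 11877 tested genes and that of Il13 the 186th lowest.

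Whether the genotypes answered IL-33 to a different degree was tested as an interaction, which 15.1% of all tested genes passed (8.43% with a lower and 6.72% with a higher response in STAT3-KO). Il5 and Il13 passed it and Il4 and Rad50 did not. The response of Il5 in STAT3-KO minus that in WT was -2.22 ± 0.18 on the log2(FPKM + 1) scale (SE; 95% interval -2.63 to -1.82, adjusted p = 0.00036 by limma). For Il13 the difference of responses was -2.27 ± 0.23 (SE; 95% interval -2.80 to -1.74, adjusted p = 0.00103 by limma). For Il4 it was -0.90 ± 0.28 (SE; adjusted p = 0.0638 by limma) and for Rad50 -0.48 ± 0.15 (SE; adjusted p = 0.0681 by limma), so the responses of these 2 genes were not shown to differ between the genotypes. The comparisons share libraries with each other and are not independent.

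**Figure D2:**
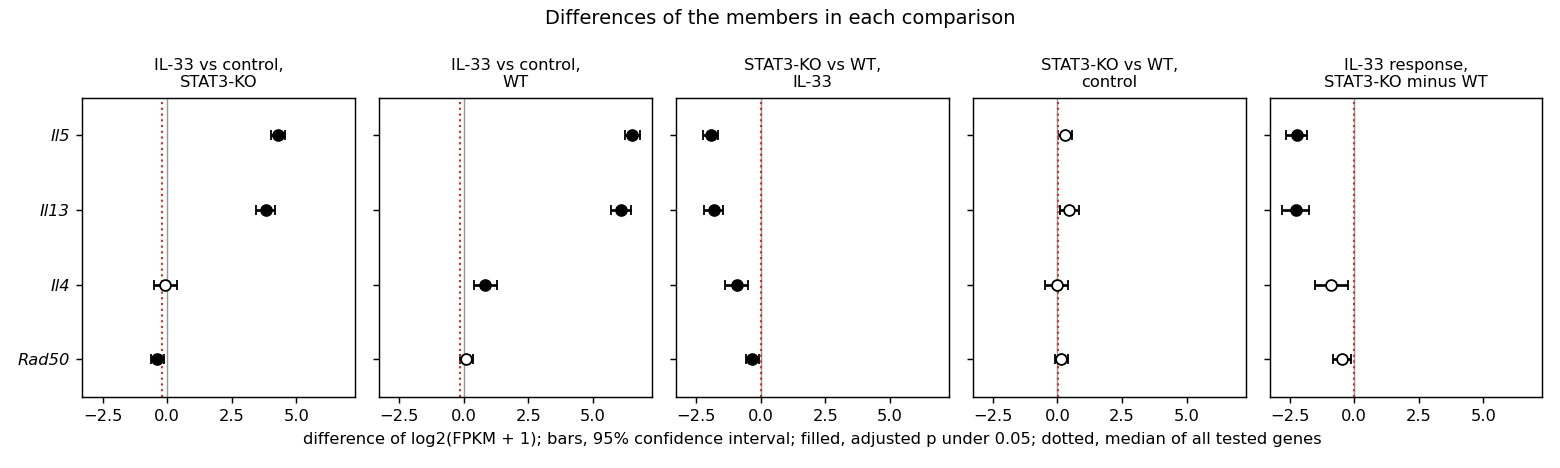
Differences of the 4 members on the log2(FPKM + 1) scale in the 5 comparisons, with 95% confidence intervals from limma, filled points where the adjusted p is under 0.05 and a dotted line at the median of all tested genes. Il5 and Il13 lie far to the right in both IL-33 responses and at -1.93 and -1.82 between genotypes with IL-33, and all 4 points are open in control medium.

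Most ILC2 markers were also lower in STAT3-KO than in WT with IL-33. The 14 ILC2 markers summed to 2224 and 2182 FPKM in STAT3-KO with IL-33, 5123 and 5088 FPKM in WT with IL-33, 3227 and 3212 FPKM in STAT3-KO control, and 3298 and 3460 FPKM in WT control. By limma, 3 were higher and 6 lower with IL-33 than in control in WT (64.3%, beside 36.1% of all tested genes). The higher sum there came mostly from Il2ra, Ly6a and Areg. These averaged 970, 983 and 704 FPKM in WT with IL-33, and 94.1, 235 and 4.55 FPKM in WT control. With IL-33, 11 of the 14 were lower and 0 higher in STAT3-KO than in WT by limma, also after rescaling. That is 78.6% of the markers, beside 32.6% of all tested genes (16.4% lower, 16.3% higher). Il1rl1, which encodes the IL-33 receptor ST2, had 78.5 and 92.4 FPKM in STAT3-KO with IL-33, 350 and 370 FPKM in WT with IL-33, 389 and 359 FPKM in STAT3-KO control, and 231 and 424 FPKM in WT control. Il1rl1 was lowest in both STAT3-KO libraries with IL-33, and its part in the lower Il5 and Il13 was not tested. The 13 T cell markers summed to 160 and 121 FPKM in STAT3-KO with IL-33, 209 and 195 FPKM in WT with IL-33, 606 and 571 FPKM in STAT3-KO control, and 595 and 553 FPKM in WT control. The sum was lower in STAT3-KO than in WT with IL-33, and lower with IL-33 than in control. Trbc1 and Trbc2, constant regions of the T cell receptor, held most of it, and of the 5 T cell markers tested Trbc2 was lower in STAT3-KO than in WT with IL-33 (-0.80 ± 0.12 on the log2(FPKM + 1) scale, adjusted p = 0.0014 by limma). Cd4, Cd8a and Cd8b1 were each at 0 in 7 of 8 libraries. The 6 markers of NKT and NK cells in the table summed to 4.65 and 4.98 FPKM in STAT3-KO with IL-33, 81.2 and 86.4 FPKM in WT with IL-33, 47.0 and 43.6 FPKM in STAT3-KO control, and 22.4 and 18.1 FPKM in WT control, with Ncr1, a defining NK cell receptor, at 0 in 7 of 8 libraries. Gzmb, which encodes granzyme B, held most of that sum with IL-33 in WT. The part of the marker lists in the member results was not tested.

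Il4 was the weakest expressed member and the one for which counting error matters. It had 2.70 and 2.61 FPKM in STAT3-KO with IL-33, 6.80 and 5.26 FPKM in WT with IL-33, 3.25 and 2.44 FPKM in STAT3-KO control, and 2.72 and 3.14 FPKM in WT control. The WT libraries with IL-33 were the highest, and the 6 others lay between 2.44 and 3.25 FPKM, where STAT3-KO with IL-33 overlapped STAT3-KO control. Behind these levels were 54 and 57 reads in STAT3-KO with IL-33, 166 and 105 in WT with IL-33, 67 and 48 in STAT3-KO control, and 56 and 61 in WT control. The 95% Poisson intervals reached from 4.30 FPKM upwards in the WT libraries with IL-33 and up to 4.12 FPKM at most in the 6 others, and they cover counting error only. In WT the mean was 6.03 ± 1.09 FPKM with IL-33 and 2.93 ± 0.30 FPKM in control (SD, n = 2 each), a 2.06-fold ratio and a log2(FPKM + 1) difference of 0.83 ± 0.20 (SE; adjusted p = 0.0122 by limma). In STAT3-KO it was 2.66 ± 0.06 FPKM with IL-33 and 2.84 ± 0.57 FPKM in control (SD, n = 2 each), with a difference of -0.06 (95% interval -0.52 to 0.39, adjusted p = 0.81 by limma), which turned to 0.08 after rescaling.

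Both Il4 calls rested on few libraries. Without WT IL-33 replicate 1, the response in WT was 0.67 (adjusted p = 0.089 by limma) and the difference between genotypes with IL-33 was -0.78 (adjusted p = 0.0653 by limma), and without WT control replicate 1 the response in WT was 0.76 (adjusted p = 0.0547 by limma). Basophils and mast cells are strong sources of IL-4, and 8 of the 15 markers listed for them had a row in the table. They summed to 10.1 and 8.14 FPKM in STAT3-KO with IL-33, 137 and 166 FPKM in WT with IL-33, 143 and 172 FPKM in STAT3-KO control, and 339 and 330.9 FPKM in WT control. Cpa3, a mast cell protease gene, held most of the sum in WT control, with 326 and 299 FPKM. Cd200r3, Hdc, Mitf, Mcpt1 and Cma1, which also had a row, stayed at or below 0.914 FPKM in every library. Fcer1a, Ms4a2, Prss34, Gata2, Mcpt4, Tpsb2 and Tpsab1 had no row. Of the 3 markers tested, Cpa3 and Kit were, as was Il4, lower in STAT3-KO than in WT with IL-33. For Cpa3 and Kit the log2(FPKM + 1) differences were -2.20 and -2.87 (adjusted p = 3.17e-05 and 0.000874 by limma). In WT, Cpa3 averaged 38.2 FPKM with IL-33 and 312 FPKM in control, and Kit 8.60 and 21.1 FPKM, whereas Il4 rose with IL-33. The basophil protease gene Mcpt8 had 92.8 and 114 FPKM in WT with IL-33 and at most 0.246 FPKM in the 6 other libraries, and so passed the filter through that group alone. Its lower level in STAT3-KO than in WT with IL-33 is thus a description. The part of these genes in the Il4 result was not tested. Eosinophil markers (3 of 9 with a row) summed to between 0.546 and 4.30 FPKM in all libraries.

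**Figure D3:**
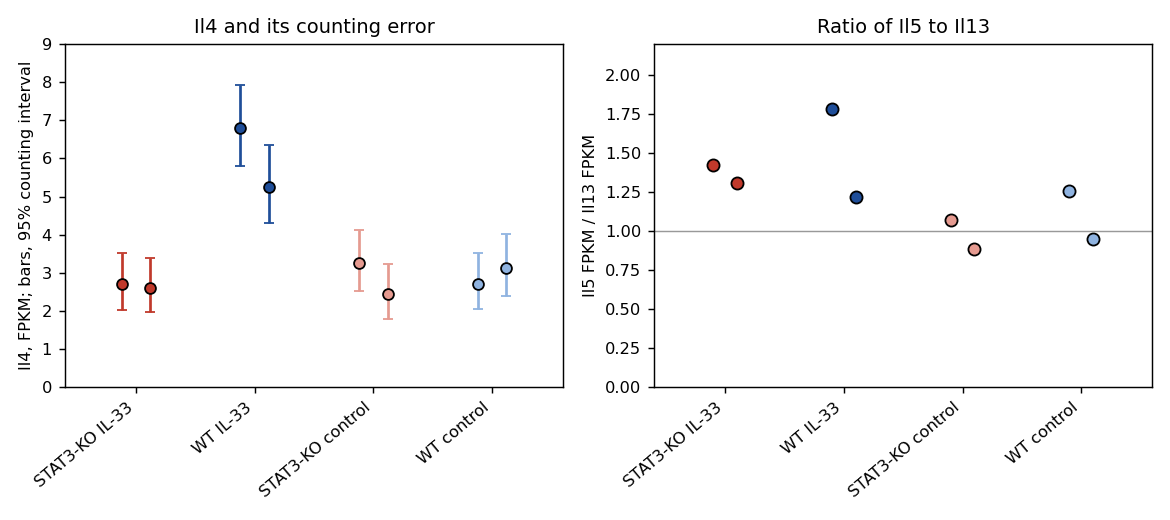
Left, Il4 in FPKM per library with 95% Poisson intervals of its read count; right, the ratio of Il5 to Il13 FPKM per library, with a line at 1. The intervals of the WT libraries with IL-33 lie above those of the 6 other libraries, and the ratio lies between 0.887 and 1.78.

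Per length, Il5 and Il13 ran close to each other in every library, and both lay far above Il4. The ratio of Il5 to Il13 FPKM was 1.42 and 1.31 in STAT3-KO with IL-33, 1.78 and 1.22 in WT with IL-33, 1.07 and 0.887 in STAT3-KO control, and 1.26 and 0.950 in WT control. Both STAT3-KO values with IL-33 lay between those of WT with IL-33. The ratio of Il13 to Il4 FPKM was 267 and 239 in STAT3-KO with IL-33, 297 and 529 in WT with IL-33, 14.2 and 19.6 in STAT3-KO control, and 11.2 and 12.1 in WT control. Il4 was thus the lowest of the 3 cytokine mRNAs with and without IL-33.

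Rad50, the repair gene that separates Il5 from Il13, had 32.2 and 35.3 FPKM in STAT3-KO with IL-33, 44.6 and 40.7 FPKM in WT with IL-33, 44.0 and 44.6 FPKM in STAT3-KO control, and 39.3 and 40.4 FPKM in WT control. It was low in both STAT3-KO libraries with IL-33 and at 39.3 FPKM or above in the 6 others. Unlike Il5 and Il13 on either side, Rad50 was not called higher with IL-33 in either genotype. The order of the genotypes was that of Il5 and Il13, with STAT3-KO libraries above WT in control and below WT with IL-33. In STAT3-KO the mean was 33.7 ± 2.2 FPKM with IL-33 and 44.3 ± 0.4 FPKM in control (SD, n = 2 each), a ratio of 0.762 and a log2(FPKM + 1) difference of -0.38 ± 0.11 (SE; adjusted p = 0.0172 by limma). In WT it was 42.6 ± 2.7 FPKM with IL-33 and 39.9 ± 0.8 FPKM in control (SD, n = 2 each), with a difference of 0.09 (95% interval -0.15 to 0.34, adjusted p = 0.528 by limma). In control medium, Rad50 was about as abundant per length as Il5, with ratios of Il5 to Rad50 of 1.12 and 0.952 in STAT3-KO and 0.979 and 0.889 in WT.

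The Rad50 calls were not firm. Its fall with IL-33 in STAT3-KO became -0.19 after rescaling (adjusted p = 0.181 by limma) and missed the threshold without STAT3-KO control replicate 1 (adjusted p = 0.0712 by limma) or 2 (0.0859) or STAT3-KO IL-33 replicate 1 (0.0654). Its difference between genotypes with IL-33 missed it in 7 of the 8 fits that left out a library and in 4 of the other alternatives, with adjusted p-values of 0.0351 to 0.189 by limma over all alternatives.

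In control medium, 0 of 4 members passed between STAT3-KO and WT by limma, in a comparison in which 0.463% of all tested genes passed (0.253% higher and 0.21% lower). At an unadjusted p under 0.05 there were 2 by limma and 0 by voom on the recovered reads, which also called 0. Of all 11877 tested genes, 1062 were under that threshold by limma in the fit of the control groups alone, and 1014 with a pseudocount of 0.1. These all-gene counts also stand beside the unadjusted counts of neighbours and lists in control medium given below. Mean Il5 in STAT3-KO was 1.23 times that in WT (log2(FPKM + 1) difference 0.29, 95% interval 0.0022 to 0.58, adjusted p = 0.532 by limma) and mean Il13 was 1.37 times that in WT (0.45, interval 0.08 to 0.83, adjusted p = 0.418 by limma). The differences were -0.04 for Il4 (interval -0.49 to 0.41, adjusted p = 0.992 by limma) and 0.15 for Rad50 (interval -0.10 to 0.39, adjusted p = 0.779 by limma). The libraries of Il5, Il13 and Rad50 did not overlap, with STAT3-KO higher, as for 21.1% of all tested genes (16.8% lower).

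The genes around the locus show how far the large IL-33 responses extended along the chromosome. Within 500 kb of the span from Il4 to Il5 there were 34 genes in the table, and 10 named genes beside the members were tested. In STAT3-KO, IL-33 raised 4 of the 10 and lowered 1, with differences between -1.21 and 1.60 on the log2(FPKM + 1) scale, against 4.29 for Il5. That is 50% of the neighbours, beside 51.0% of all tested genes. In WT it raised 3 and lowered 1 (40%, beside 36.1% of all tested genes), with differences between -1.39 and 1.39, against 6.52 for Il5. After rescaling 5 were higher and 1 lower in each genotype. Kif3a, a kinesin motor gene and the next gene beyond Il4, averaged 22.9 FPKM in STAT3-KO with IL-33, 21.4 in WT with IL-33, 16.5 in STAT3-KO control and 10.7 in WT control, and rose by 0.45 ± 0.14 in STAT3-KO and by 0.94 ± 0.14 in WT (SE; adjusted p = 0.027 and 0.00137 by limma). Irf1, an interferon-induced transcription factor gene and the next named gene beyond Il5, averaged 47.7 FPKM in STAT3-KO with IL-33, 33.4 in WT with IL-33, 57.3 in STAT3-KO control and 89.3 in WT control, and fell by 1.39 in WT on the log2(FPKM + 1) scale (adjusted p = 0.000222 by limma), with a difference of -0.27 in STAT3-KO (adjusted p = 0.149 by limma). The nearest tested genes on either side thus moved by far less than Il5 and Il13, and in WT one rose and the other fell.

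Further out, Hspa4, a heat shock protein gene, rose with IL-33 by 0.79 ± 0.11 in STAT3-KO and by 1.39 ± 0.11 in WT (log2(FPKM + 1) differences with SE; adjusted p = 0.000701 and 6.14e-05 by limma). P4ha2, a collagen hydroxylase gene, averaged 5.02 FPKM in STAT3-KO with IL-33 and between 0.685 and 0.976 FPKM in the other groups. It was higher in STAT3-KO than in WT with IL-33, the direction opposite to that of the members. Its means in the other groups were below the 1 FPKM of the filter. This difference, and the neighbour counts and ranges that hold P4ha2, are thus a description. Between genotypes with IL-33, 2 of the 10 neighbours were higher and 2 lower (40%, beside 32.6% of all tested genes). In control medium 0 of the 10 passed by limma or by voom, beside 0.463% of all tested genes by limma, with 2 at an unadjusted p under 0.05 by each. The calls of Hspa4 and Irf1 between genotypes with IL-33, of Kif3a in STAT3-KO and of Zcchc10 in WT were lost in 4 or 5 of the 8 fits that left out a library, and that of Aff4 between genotypes with IL-33 was lost without WT IL-33 replicate 1 (adjusted p = 0.0538 by limma).

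**Figure D4:**
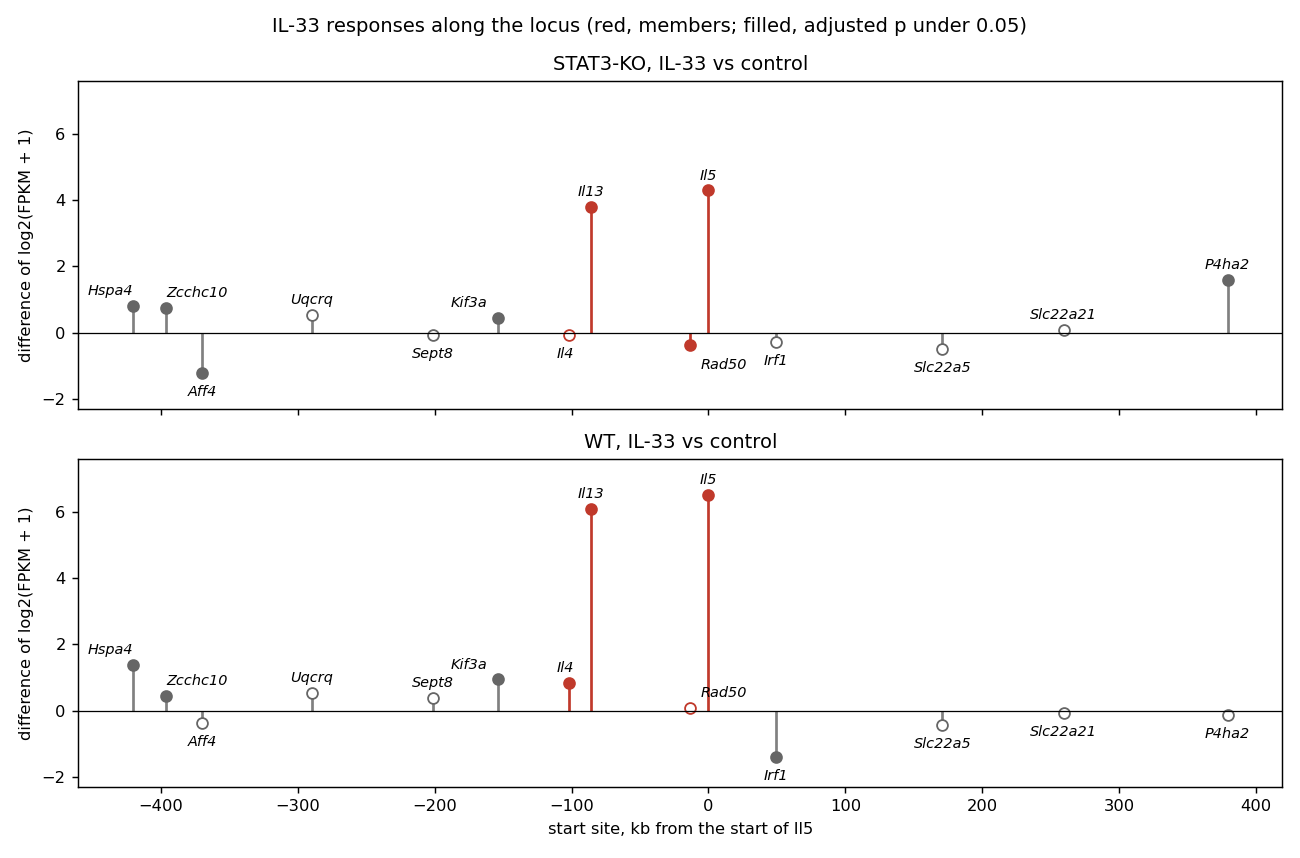
Differences between IL-33 and control on the log2(FPKM + 1) scale for the members (red) and the 10 named neighbours tested (grey), by distance of the start site from that of Il5 in kb, in STAT3-KO above and WT below. Il5 and Il13 stand far above every neighbour in both genotypes, and Rad50, between them, lies near 0.

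Across all libraries, the genes most like each member were found by the root mean square difference of log2(FPKM + 1) values centred on each gene's mean, over 8 libraries and genes that averaged at least 5 FPKM. Il5 and Il13 were each other's nearest gene among 5867, at a difference of 0.30. After Il13, the nearest to Il5 were Il1r2, a decoy receptor of IL-1 (0.42), and the cytokine gene Il10 (0.51). After Il5, the nearest to Il13 were Il10 (0.40) and Tnfrsf9, the co-stimulatory receptor 4-1BB (0.48). Il1r2 averaged 169 FPKM in STAT3-KO with IL-33, 367 in WT with IL-33, 3.33 in STAT3-KO control and 2.94 in WT control. Il4 averaged below 5 FPKM and so was not among these genes. Set beside them, its distance from Il5 would rank 876, by a measure that also reflects the size of a change. The genes nearest to Il4 were Krtcap2 (0.10), Chsy1 (0.11) and Aldh3a1 (0.11). Krtcap2 averaged 8.98 FPKM in STAT3-KO with IL-33, 18.1 in WT with IL-33, 9.84 in STAT3-KO control and 9.99 in WT control. The nearest to Rad50 were Lrrfip1 (0.05), Sppl2a (0.06) and Prkar1a (0.06), of which Prkar1a averaged 277 FPKM in STAT3-KO with IL-33, 331.5 in WT with IL-33, 342 in STAT3-KO control and 330 in WT control.

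Of 40 transcription factors reported to act on the locus, 36 were tested. In STAT3-KO 9 were higher and 21 lower with IL-33 (9 and 19 after rescaling), with a median difference of -0.73 on the log2(FPKM + 1) scale (all genes -0.18). In WT 8 were higher and 17 lower (9 and 14 after rescaling), with a median of -0.47 (all genes -0.14). Of the 36, 83.3% were called in STAT3-KO and 69.4% in WT, beside 51.0% and 36.1% of all tested genes. Of the factors called, 70% in STAT3-KO and 68% in WT were lower, beside 60.003% and 59.8% of all genes called. After rescaling, 48.0% and 45.6% of all genes called were lower. Beside these stand the rescaled factor counts of 19 lower and 9 higher in STAT3-KO, and 14 lower and 9 higher in WT. Gata3, the factor that defines ILC2s, averaged 173 FPKM in STAT3-KO with IL-33, 285 in WT with IL-33, 515 in STAT3-KO control and 459 in WT control, and was lower with IL-33 in both genotypes (-1.57 in STAT3-KO and -0.69 in WT on the log2(FPKM + 1) scale, adjusted p = 3.3e-06 and 0.000389 by limma). Rora, another factor needed for ILC2s, was lower in both (-1.50 in STAT3-KO and -1.44 in WT, adjusted p = 6.74e-05 and 0.000138 by limma), as was Bcl11b, a lymphocyte identity factor (-1.26 in STAT3-KO and -1.94 in WT, adjusted p = 0.000639 and 0.000108 by limma). Nfkb1, a subunit of the NF-kB factors that IL-33 activates, was also lower in both (-2.14 in STAT3-KO and -1.20 in WT, adjusted p = 5.2e-06 and 0.000183 by limma). Junb, an AP-1 subunit, rose in both genotypes (2.32 ± 0.11 in STAT3-KO and 2.33 ± 0.11 in WT, adjusted p = 2.25e-06 and 3.67e-06 by limma), averaging 450 FPKM in STAT3-KO with IL-33, 447 in WT with IL-33, 89.0 in STAT3-KO control and 87.8 in WT control. Pparg, a nuclear receptor known to favour ILC2 cytokines, rose by 1.31 ± 0.11 in STAT3-KO and by 1.25 ± 0.11 in WT (SE; adjusted p = 4.23e-05 and 8.91e-05 by limma).

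Between genotypes with IL-33, 5 of the 36 factors were higher and 10 lower, with a median difference of -0.09 (all genes 0.01). That is 41.7% of the factors, beside 32.6% of all tested genes. Ets1, a lymphocyte factor required for ILC2 development, averaged 10.4 FPKM in STAT3-KO and 72.8 FPKM in WT with IL-33, a log2(FPKM + 1) difference of -2.70 ± 0.12 (SE; adjusted p = 6.47e-06 by limma). Ikzf1, the lymphoid factor Ikaros, averaged 11.3 FPKM in STAT3-KO and 45.005 FPKM in WT (-1.90 ± 0.16, adjusted p = 0.00011 by limma). Id2, the inhibitor of E proteins that all innate lymphoid cells need, averaged 622 FPKM in STAT3-KO and 1448 FPKM in WT (-1.22 ± 0.08, adjusted p = 4.15e-05 by limma). Tbx21, which encodes T-bet, a factor that opposes the type 2 program in T helper cells, went the other way with 4.49 FPKM in STAT3-KO and 0.222 FPKM in WT (2.19 ± 0.22, adjusted p = 0.000238 by limma). In control medium Tbx21 was the 1 factor of 36 to pass (2.78%, beside 0.463% of all tested genes). It was at 20.3 FPKM in STAT3-KO and 3.58 FPKM in WT (2.23 ± 0.22, adjusted p = 0.0078 by limma). That call in control medium was lost with a pseudocount of 0.1 (adjusted p = 0.239 by limma), in the fit of the control groups alone (0.216) and without STAT3-KO control replicate 1 (0.0749) or 2 (0.0831). Gata3 and Rora are also among the ILC2 markers, and Tbx21 among those of NK cells. The lists described below share genes as well, and so are not separate observations. Stat6 is among both the factors and the transducers, and Arg1 among the ILC2 markers and the STAT6-induced genes. Il24 is among the STAT6-induced genes and the other cytokines, and Areg among those cytokines and the ILC2 markers.

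On the receiving side, 3 of 7 receptor genes for IL-4, IL-5 and IL-13 were tested, of which 1 was higher and 1 lower with IL-33 in STAT3-KO, 2 were higher in WT, and 1 was lower in STAT3-KO than in WT with IL-33. Of the 3, 66.7% passed in STAT3-KO and 66.7% in WT, beside 51.0% and 36.1% of all tested genes. Between genotypes with IL-33 33.3% passed, beside 32.6% of all tested genes. Csf2rb, the signalling chain of the IL-5 receptor, averaged 8.77 FPKM in STAT3-KO with IL-33, 7.68 in WT with IL-33, 0.957 in STAT3-KO control and 0.705 in WT control, and rose in both genotypes by limma (2.31 ± 0.20 in STAT3-KO and 2.35 ± 0.20 in WT on the log2(FPKM + 1) scale, adjusted p = 5.06e-05 and 7.36e-05). Il4ra, the chain shared by the receptors of IL-4 and IL-13, averaged 60.9 FPKM in STAT3-KO with IL-33, 116 in WT with IL-33, 62.9 in STAT3-KO control and 58.98 in WT control. It rose in WT by 0.96 ± 0.11 (SE; adjusted p = 0.000398 by limma), differed by -0.05 in STAT3-KO with an adjusted p of 0.746 by limma, and was lower in STAT3-KO than in WT with IL-33 by a difference of -0.92 ± 0.11 (SE; adjusted p = 0.000621 by limma). Il2rg, the common gamma chain, with IL-33 fell by 0.58 in STAT3-KO (adjusted p = 0.00775 by limma, with -0.36 and 0.0667 in WT), a call that missed the threshold after rescaling (0.0534) and without STAT3-KO control replicate 1 (0.0597). In control medium 0 of the 3 passed by limma or voom, beside 0.463% of all tested genes by limma, with 0 at an unadjusted p under 0.05.

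Of 11 transducers and feedback genes of IL-4 and IL-13 signalling, 9 were tested, of which 0 were higher and 2 lower with IL-33 in STAT3-KO and 3 were higher and 3 lower in WT. After rescaling these counts were 1 and 2 in STAT3-KO and 4 and 2 in WT. Between genotypes with IL-33, 1 was higher and 3 lower. Of the 9, 22.2% passed with IL-33 in STAT3-KO and 66.7% in WT, beside 51.0% and 36.1% of all tested genes. Between genotypes with IL-33 44.4% passed, beside 32.6% of all tested genes. Irs2, an adaptor of the IL-4 receptor, averaged 1.88 FPKM in STAT3-KO and 15.1 FPKM in WT with IL-33 (log2(FPKM + 1) difference -2.48 ± 0.20, adjusted p = 7.65e-05 by limma). Jak1, a kinase bound to these receptors, averaged 33.4 FPKM in STAT3-KO and 108.9 FPKM in WT with IL-33 (-1.68 ± 0.15, adjusted p = 0.000131 by limma). Ptpn6, the phosphatase SHP-1 that dampens such signals, averaged 52.6 FPKM in STAT3-KO and 21.3 FPKM in WT with IL-33 (1.26 ± 0.15, adjusted p = 0.000554 by limma). Stat6 itself was lower with IL-33 in both genotypes (-1.01 in STAT3-KO and -0.80 in WT on the log2(FPKM + 1) scale, adjusted p = 0.000951 and 0.00473 by limma).

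Of 13 genes known to be induced through STAT6 in other mouse cells, mainly macrophages and dendritic cells, 6 were tested, of which 5 were higher and 1 lower with IL-33 in STAT3-KO, 3 were higher and 0 lower in WT, and 4 were higher and 2 lower in STAT3-KO than in WT with IL-33. Ccl22 and Ccl17, among those called higher in STAT3-KO, passed the filter on low values through STAT3-KO with IL-33 alone (4.34 and 1.26 FPKM), so the counts that hold them are a description. Of all tested genes, 51.0% passed with IL-33 in STAT3-KO, 36.1% in WT and 32.6% between genotypes with IL-33. The eosinophil chemokine gene Ccl24 averaged 10.8 FPKM in STAT3-KO and 1.97 FPKM in WT with IL-33 (log2(FPKM + 1) difference 2.03 ± 0.26, adjusted p = 0.000834 by limma) and was listed at 0 in all control libraries. Arg1, arginase, averaged 276 FPKM in STAT3-KO and 503 FPKM in WT with IL-33 (-0.86 ± 0.09, adjusted p = 0.000294 by limma).

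Most of the other lymphocyte cytokines that changed between genotypes with IL-33 were higher in STAT3-KO, opposite to the locus, with Il10 and Il24 lower. Of 18 such genes 12 were tested, of which 10 were higher and 1 lower with IL-33 in STAT3-KO, and 7 were higher and 2 lower in WT. In STAT3-KO against WT with IL-33, 7 were higher and 2 lower, with a median difference of 0.71 on the log2(FPKM + 1) scale (all genes 0.01), whereas the 3 locus cytokines were all lower. Among the 12, Il3 passed the filter through STAT3-KO with IL-33 alone (2.13 FPKM), so these counts and the median are a description. Of the 12, 91.7% passed with IL-33 in STAT3-KO, 75% in WT and 75% between genotypes, beside 51.0%, 36.1% and 32.6% of all tested genes. Il9, a mast cell growth factor, averaged 258 FPKM in STAT3-KO and 1.29 FPKM in WT with IL-33 (6.84 ± 0.24, adjusted p = 2.8e-06 by limma), and Csf2, which encodes GM-CSF, averaged 136 FPKM in STAT3-KO and 20.6 FPKM in WT (2.66 ± 0.13, adjusted p = 9.28e-06 by limma). Il10 averaged 15.8 FPKM in STAT3-KO and 40.2 FPKM in WT with IL-33 (-1.30 ± 0.23, adjusted p = 0.00319 by limma). Il24 averaged 3.07 FPKM in STAT3-KO and 17.6 FPKM in WT with IL-33 (-2.20 ± 0.20, adjusted p = 0.000163 by limma). In control medium 0 of the 9 transducers, 0 of the 6 STAT6-induced genes and 0 of the 12 cytokines passed by limma or voom. Of all tested genes 0.463% passed by limma. At an unadjusted p under 0.05 there were 0, 0 and 3 by each.

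For Rad50, 24 of 26 listed partners in double-strand break repair were tested. With IL-33, 0 were higher and 12 lower in STAT3-KO, with a median difference of -0.52 on the log2(FPKM + 1) scale (all genes -0.18), and after rescaling 1 was higher and 10 lower. That is 50% of the partners, beside 51.0% of all tested genes (30.6% lower). In WT 4 were higher and 3 lower (29.2%, beside 36.1% of all tested genes), with a median of -0.07 (all genes -0.14) that turned to 0.07 after rescaling. Between genotypes with IL-33, 1 was higher and 9 lower (41.7%, beside 32.6% of all tested genes), with a median of -0.49 (all genes 0.01). Nbn, the nibrin subunit of the same complex, averaged 10.99 FPKM in STAT3-KO with IL-33, 11.98 in WT with IL-33, 27.8 in STAT3-KO control and 24.7 in WT control, and was lower with IL-33 in both genotypes (-1.27 in STAT3-KO and -0.98 in WT, adjusted p = 0.000216 and 0.00133 by limma). Brca1, a repair factor expressed in dividing cells, averaged 0.924 FPKM in STAT3-KO and 5.12 FPKM in WT with IL-33 (-1.66 ± 0.20, adjusted p = 0.000628 by limma). Blm, a helicase, averaged 1.202 FPKM in STAT3-KO and 12.7 FPKM in WT with IL-33 (-2.63 ± 0.30, adjusted p = 0.00041 by limma). Smc1a, a cohesin subunit, averaged 15.8 FPKM in STAT3-KO and 37.4 FPKM in WT with IL-33 (-1.19 ± 0.15, adjusted p = 0.000815 by limma). In control medium 0 of the 24 passed by limma or voom, beside 0.463% of all tested genes by limma. At an unadjusted p under 0.05 there were 2 by limma and 3 by voom.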

How the data were processed

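Total RNA was sequenced in 8 libraries, 2 per group. The authors deposited FPKM values per gene, made with Bowtie2 and RSEM on GRCm38, per the submitters' processing notes; versions, annotation, filters and strand setting are not given in the sources used here. Of 22075 genes, 22041 identifiers were in GENCODE M21, which gave positions and exon lengths. FPKM times exon length gave whole reads (within 0.02 for 93.5% to 94.6% of values of at most 100 reads), and so a depth of 15843686 to 19905816 reads, at which 3 reads in a 1 kb gene are 0.151 to 0.189 FPKM. How whole reads on these lengths arise from RSEM is not described in the sources used here. The read counts, the Poisson intervals of Il4 and the voom fit rest on this recovery.

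Tests used limma 3.58.1 in R 4.3.3 on log2(FPKM + 1), a scale that understates changes of low genes, for the 11877 genes with at least 1 FPKM in at least 2 libraries. The model had 1 mean per group over all 8 libraries (4 residual degrees of freedom, and 4.46 from the prior at the median) and an eBayes prior with a trend. The 5 comparisons were two-sided and adjusted by Benjamini-Hochberg over all tested genes, and the fit was tested on simulated data. Means ± SD are in FPKM and intervals are 95%. Alternatives changed the pseudocount, the filter, the scaling, the prior, the replicate block, the groups fitted and the libraries; voom on recovered reads was added after seeing the data. Tables and figures used Python 3.11.15, numpy 2.4.6, pandas 2.3.3, scipy 1.17.1 and matplotlib 3.10.9.

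The members, 6 gene lists and 5 marker lists were chosen with earlier results of these data known. Beyond the members, the text names genes within 500 kb, the 3 genes nearest in pattern, markers beside a result and up to 4 called members of smallest p per list and comparison; not all of these are printed, and interaction values are given for the members only.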

Additional observations from a re-analysis of the deposited data

Results flagged for a closer look

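The IL-33 response of Il5 differed between STAT3-KO and WT by the interaction test, with a difference of responses of -2.22 ± 0.18 (SE) on the log2(FPKM + 1) scale (4.29 in STAT3-KO and 6.52 in WT; adjusted p = 0.00036 by limma). For Il13 the difference of responses was -2.27 ± 0.23 (SE), from 3.81 in STAT3-KO and 6.08 in WT (adjusted p = 0.00103 by limma). Both IL-33 libraries of STAT3-KO lay below both IL-33 libraries of WT for each gene. Of the 14 ILC2 markers given with these results, 11 were also lower in STAT3-KO than in WT with IL-33, Il1rl1 among them. Of all tested genes, 16.4% were lower in that comparison. The part of these markers was not tested.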

How the results depend on the processing

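Il5 and Il13 kept direction and call in all alternatives run (15 or 16 per comparison), with Il5 responses of 4.13 to 4.49 in STAT3-KO and 6.47 to 6.68 in WT. Over all members, 294 of 316 alternative values kept direction and side of the threshold. Of the values that changed, the cause was not tested. Il4 with IL-33 in STAT3-KO turned to 0.0848 after rescaling and ranged from -0.216 to 0.0887 when a library was left out; between genotypes in control it ranged from -0.190 to 0.114. Leaving out a library gave 0.674 to 0.991 for Il4 in WT and -1.09 to -0.775 for Il4 between genotypes with IL-33. For Rad50 it gave -0.448 to -0.318 in STAT3-KO and -0.393 to -0.263 between genotypes with IL-33. Rad50 was -0.185 after rescaling in STAT3-KO. Between genotypes with IL-33 it was -0.309 after rescaling (adjusted p = 0.056 by limma) and -0.328 without the prior trend (0.103), with the replicate block (0.0578) and in the fit of the groups compared alone (0.0992). Same-numbered libraries did not deviate together (correlations -0.0619 to 0.0448). With 2 libraries per group, that cannot exclude that same-numbered libraries share a mouse or culture. The replicate block changed no other call of a member, and it called 37 genes between genotypes in control.

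Genes called between genotypes in control numbered 55, but 34 with a pseudocount of 0.1, 0 in the fit of those groups alone by limma (1062 at an unadjusted p under 0.05), 46 by voom and 1 to 35 when any of the 8 libraries was left out. Interaction calls numbered 1799, but 1149 without the filter and 764 to 1993 when a library was left out, with the lowest count without WT IL-33 replicate 2. The same step gave 2550 to 4301 calls for IL-33 in WT (4285 in full) and 2117 to 4013 between genotypes with IL-33 (3876 in full), with the lowest counts without WT IL-33 replicate 2 (2550 and 2117) or 1 (2622 and 2369). Of 1175 alternative values for 74 results of other genes, 1122 kept direction and side of the threshold, 53 lost it and 0 reversed. Depth bears most on Il4, with 48 to 166 reads per library.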
